A study of Mus musculus with 8 samples.

Results

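The 8 genes described here encode transcription factors of the uterine stroma that take part in, or mark, the cells that decidualize: Hand2, Tcf21, Twist1 and Twist2, Foxo1, Zbtb16, and Cebpb and Cebpd. They were chosen by symbol, with earlier results of these data known, and are 8 of the 24963 genes in the table of FPKM (fragments per kilobase of gene, scaled to the total of the library), so levels of different genes are set side by side per length. The gene lengths behind these values are not given in the sources used here. RNA came from the whole uterus at gestation day 3.5 (GD3.5) of 4 Nr2f2 f/f and 4 Nr2f2 d/d mice of the C57B6/J strain, mated at 8 weeks of age with vasectomized males, so that no embryo was present in either group. All 8 mice carried floxed Nr2f2 alleles. The Nr2f2 d/d mice also carried Cre knocked into 1 Pgr allele (Pgr Cre/+), which deletes Nr2f2 in cells that have expressed the progesterone receptor and not in the rest of the tissue. The effects of the deletion and of the Cre allele itself cannot be told apart, because the Nr2f2 f/f mice had no Cre.

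Decidualization is the differentiation of endometrial fibroblasts into secretory decidual cells, driven by progesterone through its receptor PGR and by cAMP. HAND2 is a basic helix-loop-helix (bHLH) factor that progesterone induces in the stroma, where it restrains the production of fibroblast growth factors that act on the epithelium. TCF21, TWIST1 and TWIST2 are bHLH factors of mesenchymal cells. All 4 bind E-boxes (CANNTG) as dimers with E proteins, and Id proteins sequester those partners. FOXO1 and C/EBPβ act together on decidual promoters such as those of prolactin and IGFBP1, C/EBPδ is induced by cytokines and glucocorticoids, and ZBTB16 (PLZF) is a zinc finger repressor that progestins and glucocorticoids induce. NR2F2 (COUP-TFII), the deleted factor, is an orphan nuclear receptor of the stroma that binds repeats of the element AGGTCA or GGGTCA.

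Nr2f2 itself was at 25.3, 21.8, 25.7 and 23.5 FPKM in mice 1 to 4 of the Nr2f2 f/f group and at 9.66, 9.42, 6.90 and 9.74 FPKM in mice 1 to 4 of the Nr2f2 d/d group, a log2 fold change (log2FC) of -1.39 (adjusted p = 0.00549 in limma), in accord with the labels of all 8 libraries. B130024G19Rik on the opposite strand shares 7.5% of the exon bases of Nr2f2, at 9.26 ± 0.846 FPKM in Nr2f2 f/f uteri and 8.43 ± 1.46 FPKM in Nr2f2 d/d (SD, n = 4 each). The depth estimated from the values was 61400000 to 92500000 fragments per library, and each member rested on about 507 to 18976 fragments in every library. The tissue held its defining stromal markers, at a summed 1763 to 2034 FPKM for 11 genes in Nr2f2 f/f uteri and 2563 to 5060 FPKM in Nr2f2 d/d. Within the groups, Nr2f2 f/f mice 1 and 2 stood apart by the gland protease gene Prss29 (244.3 and 1444 FPKM, against 2.80 and 2.05 FPKM in mice 3 and 4), Nr2f2 d/d mouse 4 by the same gene (41.6 FPKM, against 0.041 to 1.35 FPKM in the other 3), and Nr2f2 d/d mouse 3 by the collagen gene Col1a1 (1141 FPKM, against 313.8 to 532.6 FPKM in the other 3). The mice are separate animals, and n below counts mice.

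Of the 8 genes, Hand2 was lower and Twist1 higher in Nr2f2 d/d at an adjusted p under 0.05 (Benjamini-Hochberg adjustment of limma p-values over the 14323 genes whose mean FPKM was 0.5 or more). That is 2 of 8, where 2.62% of all genes tested passed, 1.09% as higher and 1.53% as lower. At the threshold in the study's methods (fold change of at least 1.4 with an unadjusted p under 0.05), 5 of 8 passed, with Tcf21 and Twist1 higher and Hand2, Zbtb16 and Cebpd lower. Under median-ratio scaling 4 passed, without Cebpd (log2FC -0.48), where 8.75% of all genes tested passed. Centred on the stromal markers 4 passed, all lower, with Foxo1 in and Tcf21 and Twist1 out. So centred, 39.6% of all genes tested passed, 191 as higher and 5485 as lower. With the values as deposited, the threshold took in 8.8% of all genes tested, 4.7% as higher and 4.1% as lower. The FPKM of the groups did not overlap for 3 of the 8, Hand2 on the lower side and Tcf21 and Twist1 on the higher side, where 15.4% of all genes tested did not overlap, 5.49% higher and 9.91% lower. The median log2FC of the 8 was -0.16, against -0.02 over all genes tested, and the summed level of the 8 was 175.7 to 221.4 FPKM in Nr2f2 f/f uteri and 170.3 to 192.7 FPKM in Nr2f2 d/d. The sums overlapped, and 4 of the 8 genes had a log2FC above 0 and 4 below.

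**Figure D1:**
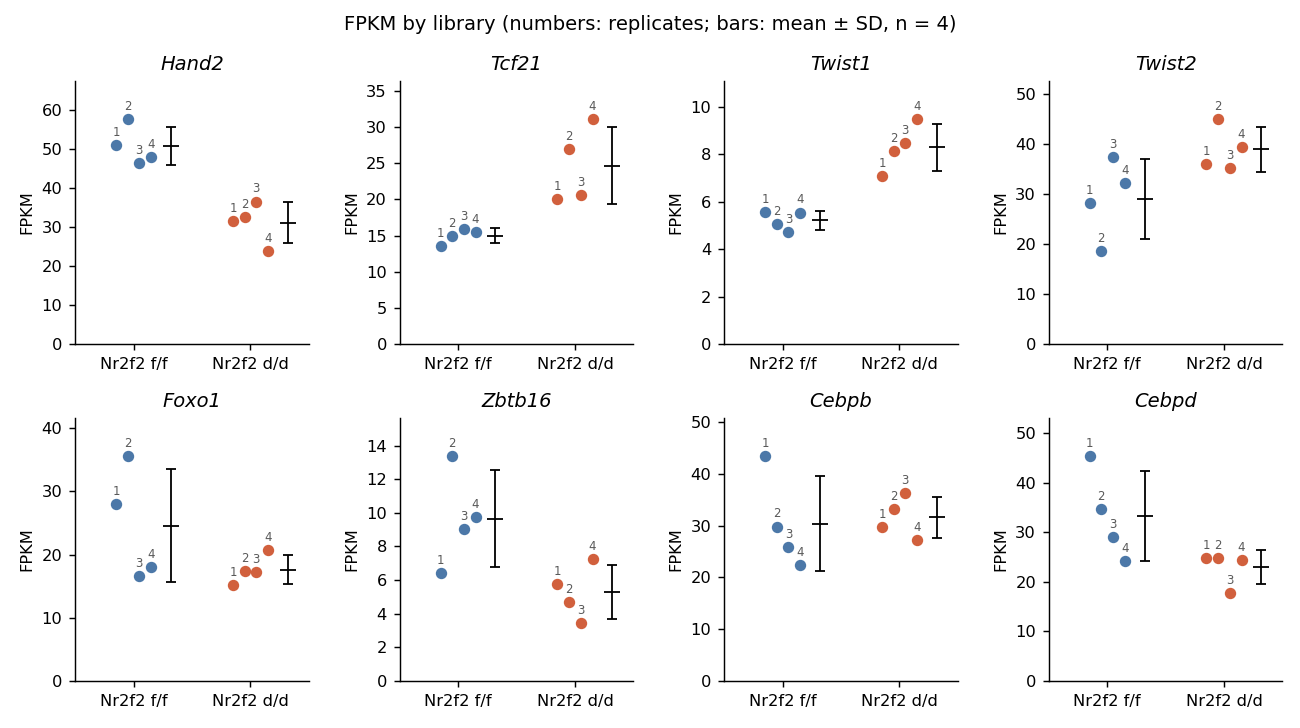
FPKM (y axis, from 0) of each of the 8 genes in every library, with 4 Nr2f2 f/f mice in blue and 4 Nr2f2 d/d mice in orange, numbered 1 to 4 in each group, and bars for the mean ± SD. Hand2 lay lower in all 4 Nr2f2 d/d mice, Tcf21 and Twist1 lay higher in all 4, and the other 5 genes overlapped between the groups.

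The regions before the start of the genes are shown for the 3 members whose groups did not overlap (Hand2, Tcf21 and Twist1). Cebpb is also shown, since it held a single GGGTCA, without a repeat. They are RefSeq promoters of GRCm38.p6, the build of mm10, read 5′ to 3′ on the strand of the gene and ending at its start. For Tcf21 the 31 bases next to the RefSeq start are not printed, since the GENCODE vM21 gene reaches over them. Capitals mark AGGTCA or GGGTCA and the E-box CANNTG, on either strand.
Hand2, chr8:57320733-57320982, plus strand: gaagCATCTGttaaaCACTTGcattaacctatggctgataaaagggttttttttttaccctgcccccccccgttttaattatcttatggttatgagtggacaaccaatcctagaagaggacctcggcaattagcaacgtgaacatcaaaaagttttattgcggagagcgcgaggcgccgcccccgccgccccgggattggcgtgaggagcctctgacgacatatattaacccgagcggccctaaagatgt
Tcf21, chr10:22820175-22820393, minus strand: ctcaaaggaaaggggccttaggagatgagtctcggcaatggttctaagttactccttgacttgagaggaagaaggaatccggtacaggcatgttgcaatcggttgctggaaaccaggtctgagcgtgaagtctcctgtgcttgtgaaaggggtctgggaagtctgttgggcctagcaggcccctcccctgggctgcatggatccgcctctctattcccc
Twist1, chr12:33957421-33957670, plus strand: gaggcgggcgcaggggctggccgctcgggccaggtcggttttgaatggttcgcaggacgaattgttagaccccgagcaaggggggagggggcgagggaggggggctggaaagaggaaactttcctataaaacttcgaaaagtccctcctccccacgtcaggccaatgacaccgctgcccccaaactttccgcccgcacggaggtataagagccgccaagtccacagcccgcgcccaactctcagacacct
Cebpb, chr2:167688665-167688914, plus strand: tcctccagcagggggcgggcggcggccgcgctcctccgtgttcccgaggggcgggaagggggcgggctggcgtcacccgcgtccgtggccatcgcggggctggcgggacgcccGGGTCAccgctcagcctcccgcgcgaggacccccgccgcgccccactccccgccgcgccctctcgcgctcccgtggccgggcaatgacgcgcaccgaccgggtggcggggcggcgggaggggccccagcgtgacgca

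AGGTCA or GGGTCA was found on either strand in the 250 bases before the start of 1 of the 6 members with an entry, Cebpb, and in 23.9% of 32817 RefSeq promoters of the same length. CANNTG was found in 2 members, Hand2 with CATCTG and CACTTG and Foxo1 with CACTTG, against 66.2% of promoters. CCAAT, which binds the general factor NF-Y, was found in Hand2, Foxo1, Twist1 and Twist2, against 33.8% of promoters. The C/EBP sequence TTGCNNAA was in Twist2 only among the 6 (9.57% of promoters), and the FoxO sequence GTAAACA in none of them (3.16% of promoters). The Cebpb window had a GC content of 81.6%, against 49.2% for Hand2 and a median of 52.4% over all promoters. Zbtb16 and Cebpd were not among the promoters matched.

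Hand2 (chromosome 8, 57320983 to 57324633, plus strand, mm10 and GENCODE vM21 as for all positions below) was the most abundant of the 8 in Nr2f2 f/f uteri and the third in Nr2f2 d/d. It was at 51.1, 57.7, 46.6 and 48.1 FPKM in mice 1 to 4 of the Nr2f2 f/f group and at 31.7, 32.7, 36.6 and 23.8 FPKM in mice 1 to 4 of the Nr2f2 d/d group. The highest Nr2f2 d/d uterus was thus below the lowest Nr2f2 f/f uterus, and Nr2f2 d/d mouse 4 was the lowest of all. The means were 50.9 ± 4.94 and 31.2 ± 5.36 FPKM (SD, n = 4 each), so Nr2f2 d/d uteri kept 61.4% of the level of Nr2f2 f/f uteri. The log2FC was -0.71 (SE 0.134, 95% interval -1.02 to -0.40, adjusted p = 0.0388 in limma), and the two-sided exact permutation test gave p = 0.0286, the smallest that 4 against 4 allows. The adjusted p was above 0.05 in 6 of the 8 fits that left out a single library, at 0.108, 0.0634, 0.0647 and 0.0897 without Nr2f2 f/f mice 1, 2, 3 and 4 and at 0.0964 and 0.101 without Nr2f2 d/d mice 1 and 2, while the log2FC stayed between -0.79 and -0.59. Hand2os1, transcribed from the opposite strand, shares 19.6% of the exon bases of Hand2, and the library kit does not mark strand, so fragments of the pair cannot be told apart there.

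The other 3 bHLH genes had log2FC values above 0, and 1 of them passed the adjusted threshold, Twist1. Twist1 (chromosome 12, 33957671 to 33959829, plus strand) had the lowest level of the 8 in Nr2f2 f/f, at 5.56, 5.06, 4.73 and 5.54 FPKM in mice 1 to 4. In mice 1 to 4 of the Nr2f2 d/d group it was at 7.09, 8.14, 8.45 and 9.47 FPKM. All 4 Nr2f2 d/d uteri were above all 4 Nr2f2 f/f uteri, and the Nr2f2 d/d uteri were the more spread. The means were 5.22 ± 0.403 and 8.29 ± 0.979 FPKM (SD, n = 4 each), a log2FC of 0.61 (SE 0.0995, 95% interval 0.39 to 0.84, adjusted p = 0.0248 in limma, exact permutation p = 0.0286). Its adjusted p was 0.0661, 0.0558 and 0.0621 without Nr2f2 f/f mice 1, 3 and 4 and 0.0853 without Nr2f2 d/d mouse 2, with a log2FC of 0.55 to 0.68 over the 8 fits that left out a library. Centred on the stromal markers, which moved every gene by -0.44, the log2FC was 0.18 (adjusted p = 0.495 in limma).

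Tcf21 (chromosome 10, 22817281 to 22820174, minus strand) was at 13.5, 14.9, 15.9 and 15.5 FPKM in mice 1 to 4 of the Nr2f2 f/f group and at 20.1, 26.9, 20.6 and 31.0 FPKM in mice 1 to 4 of the Nr2f2 d/d group. The groups did not overlap, and the Nr2f2 d/d uteri were more spread, with a coefficient of variation of 21.4% against 7.05%. The mean was 14.97 ± 1.06 FPKM in Nr2f2 f/f uteri and 24.6 ± 5.28 FPKM in Nr2f2 d/d (SD, n = 4 each), a log2FC of 0.68 (SE 0.144, 95% interval 0.35 to 1.01). Its adjusted p in limma was 0.0509, just above the threshold, and it was 0.0536 to 0.146 with a library left out and 0.0505 to 0.421 under the other alternatives. Centred on the stromal markers, the log2FC of Tcf21 was 0.24 (adjusted p = 0.421 in limma), and it no longer passed the study's threshold. The exact permutation p was 0.0286. No other gene model shares exon bases with Tcf21 or Twist1.

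Twist2, the paralog of Twist1, lies at positions 91801461 to 91848028 of chromosome 1, plus strand. It was at 28.1, 18.5, 37.4 and 32.1 FPKM in mice 1 to 4 of the Nr2f2 f/f group and at 35.9, 44.9, 35.2 and 39.4 FPKM in mice 1 to 4 of the Nr2f2 d/d group. The groups overlapped, since Nr2f2 f/f mouse 3 was above 2 of the Nr2f2 d/d uteri. The means were 29.0 ± 7.97 and 38.9 ± 4.42 FPKM (SD, n = 4 each), with a log2FC of 0.45 (SE 0.200, 95% interval -0.01 to 0.91, adjusted p = 0.244 in limma, exact permutation p = 0.0857). Without Nr2f2 f/f mouse 2, the lowest of its group, the log2FC was 0.26, and centred on the stromal markers it was 0.01. Gm29100 on the opposite strand shares 46.5% of the exon bases of Twist2. Twist1 and Twist2 share no run of 76 bases, the read length, with each other in the GENCODE transcripts, and neither do Cebpb and Cebpd.

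Foxo1 (chromosome 3, 52268336 to 52353221, plus strand) was at 27.9, 35.6, 16.6 and 18.0 FPKM in mice 1 to 4 of the Nr2f2 f/f group and at 15.1, 17.4, 17.2 and 20.7 FPKM in mice 1 to 4 of the Nr2f2 d/d group. Nr2f2 f/f mice 1 and 2 were above every other library, and mice 3 and 4 lay within the range of the Nr2f2 d/d uteri. The means were 24.5 ± 8.94 and 17.6 ± 2.31 FPKM (SD, n = 4 each), a log2FC of -0.41 (SE 0.237, 95% interval -0.95 to 0.14, adjusted p = 0.356 in limma, exact permutation p = 0.229). Without Nr2f2 f/f mouse 2 the log2FC was -0.21. Gm20402 on the opposite strand shares 7.8% of the exon bases of Foxo1. The libraries with the most Foxo1 were also those with the most Prss28, a gland protease gene, at 49.96 and 509.7 FPKM in Nr2f2 f/f mice 1 and 2 and at 6.98 FPKM or less in the other 6 libraries. Of the Nr2f2 d/d uteri, mouse 4 had the most of both Foxo1 and Prss28. Cebpa was likewise at 25.4 and 34.2 FPKM in those 2 uteri and at 4.97 to 9.56 FPKM in the other 6. The part of the gland genes in the level of Foxo1 was not tested.

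Zbtb16 (chromosome 9, 48654297 to 48836222, minus strand) was at 6.43, 13.4, 9.04 and 9.76 FPKM in mice 1 to 4 of the Nr2f2 f/f group and at 5.76, 4.70, 3.44 and 7.23 FPKM in mice 1 to 4 of the Nr2f2 d/d group. Only Nr2f2 d/d mouse 4 was above the lowest Nr2f2 f/f uterus. The mean of Nr2f2 d/d was 54.7% of that of Nr2f2 f/f, 5.28 ± 1.61 against 9.65 ± 2.87 FPKM (SD, n = 4 each), with a log2FC of -0.81 (SE 0.255, 95% interval -1.40 to -0.22). With an adjusted p of 0.129 in limma and an exact permutation p of 0.0571, it did not pass the adjusted threshold. With a library left out the log2FC ran from -0.98 to -0.64, smallest in size without Nr2f2 d/d mouse 3.

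Cebpb (chromosome 2, 167688915 to 167690418, plus strand) was at 43.5, 29.8, 25.97 and 22.4 FPKM in mice 1 to 4 of the Nr2f2 f/f group and at 29.8, 33.2, 36.3 and 27.2 FPKM in mice 1 to 4 of the Nr2f2 d/d group. All 4 Nr2f2 d/d uteri lay inside the range of the Nr2f2 f/f uteri. The means were 30.4 ± 9.22 and 31.6 ± 3.97 FPKM (SD, n = 4 each), with a log2FC of 0.09 whose 95% interval ran from -0.36 to 0.54 (adjusted p = 0.827 in limma). It had no stable sign, at 0.27 without Nr2f2 f/f mouse 1 and -0.04 without Nr2f2 f/f mouse 4. Centring on the stromal markers, which moved every gene by -0.44, put it at -0.35. Tmem189 on the opposite strand shares 20.7% of the exon bases of Cebpb, and was itself at 24.2 ± 1.23 FPKM in Nr2f2 f/f uteri and 29.5 ± 0.917 FPKM in Nr2f2 d/d (SD, n = 4 each).

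Cebpd (chromosome 16, 15887286 to 15891031, plus strand) was at 45.4, 34.6, 29.0 and 24.2 FPKM in mice 1 to 4 of the Nr2f2 f/f group and at 24.9, 24.7, 17.7 and 24.3 FPKM in mice 1 to 4 of the Nr2f2 d/d group. The groups overlapped only through Nr2f2 f/f mouse 4. The means were 33.3 ± 9.10 and 22.9 ± 3.45 FPKM (SD, n = 4 each), a log2FC of -0.50 (SE 0.197, 95% interval -0.96 to -0.05, adjusted p = 0.198 in limma, exact permutation p = 0.114). Without Nr2f2 f/f mouse 1 the log2FC was -0.35 and without Nr2f2 d/d mouse 3 it was -0.39. Spidr shares 15% of the exon bases of Cebpd on the opposite strand, at 5.30 ± 0.308 FPKM in Nr2f2 f/f uteri and 4.54 ± 0.441 FPKM in Nr2f2 d/d (SD, n = 4 each).

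**Figure D2:**
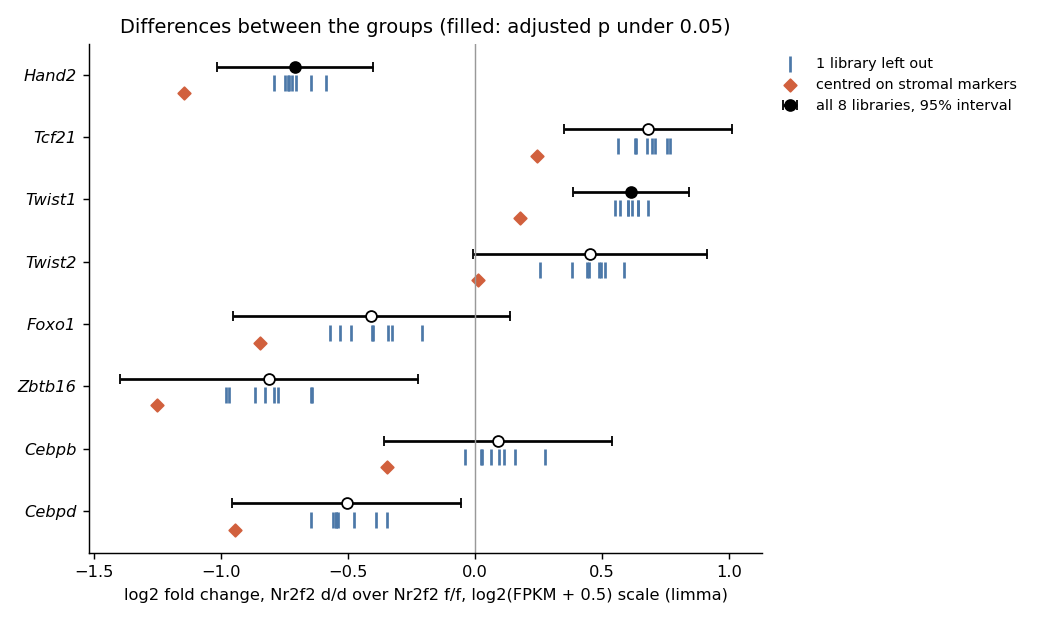
Log2 fold change (log2FC) of Nr2f2 d/d over Nr2f2 f/f on the log2(FPKM + 0.5) scale (x axis) for each gene, with circles and bars for the limma estimate and its 95% interval over all 8 libraries, blue ticks for the fits without 1 library and orange diamonds for values centred on the stromal markers. The intervals of Hand2, Zbtb16 and Cebpd lay below 0 and those of Tcf21 and Twist1 above 0, and only Hand2 and Twist1, drawn filled, had an adjusted p under 0.05.

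The order of the 8 levels differed between the groups. In Nr2f2 f/f uteri the means fell from Hand2 through Cebpd, Cebpb, Twist2, Foxo1, Tcf21 and Zbtb16 to Twist1. The ranges of neighbours in this order were apart between Hand2 and Cebpd, between Foxo1 and Tcf21, between Tcf21 and Zbtb16 and between Zbtb16 and Twist1, and overlapped between the others. In Nr2f2 d/d uteri the order was Twist2, Cebpb, Hand2, Tcf21, Cebpd, Foxo1, Twist1 and Zbtb16, and the ranges of neighbours were apart only between Foxo1 and Twist1. Foxo1, Cebpb, Cebpd and Twist2 varied more among the Nr2f2 f/f uteri, with coefficients of variation of 27.3% to 36.4% against 11.4% to 15.1% in Nr2f2 d/d, whereas Hand2, Tcf21 and Twist1 varied less in Nr2f2 f/f, by 7.05% to 9.71% against 11.8% to 21.4% in Nr2f2 d/d. Zbtb16 varied by 29.7% and 30.4%, so the coefficient was smaller in Nr2f2 d/d for 4 of the genes and larger for 4. The median gene tested had a coefficient of variation of 13.5% in Nr2f2 f/f uteri and 12.1% in Nr2f2 d/d.

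A ratio of 2 transcripts within a library does not depend on how the library was scaled. Of the 28 pairs among the 8 genes, the ratios of 13 (46.4%) did not overlap between the groups, where 15.2% of all pairs of genes tested did not. The pairs share genes and are not independent of each other. Of these 13, 11 set Hand2, Zbtb16, Foxo1 or Cebpd against Tcf21, Twist1 or Twist2, out of 12 such pairs, and the one that overlapped was Foxo1 over Twist2. This division of the genes was made after their values were seen. None of the 6 pairs within the first set and none of the 3 pairs within the second were apart.

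Hand2 over Tcf21 was 3.78, 3.87, 2.93 and 3.10 in mice 1 to 4 of the Nr2f2 f/f group and 1.58, 1.21, 1.78 and 0.767 in those of the Nr2f2 d/d group. In Nr2f2 d/d mouse 4 Tcf21 was thus the more abundant of the pair. Hand2 over Twist1 was 8.67 to 11.4 in Nr2f2 f/f uteri and 2.52 to 4.47 in Nr2f2 d/d. Hand2 over Twist2 was above 1 in all 4 Nr2f2 f/f uteri, at 1.25 to 3.11, and at 0.604 to 1.04 in Nr2f2 d/d. Zbtb16 over Tcf21 was 0.475 to 0.898 in Nr2f2 f/f uteri and 0.167 to 0.287 in Nr2f2 d/d.

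Tcf21 over Twist1 had nearly the same range in both groups, 2.43 to 3.37 in Nr2f2 f/f uteri and 2.43 to 3.30 in Nr2f2 d/d. Hand2 over Zbtb16 also overlapped, at 4.31 to 7.94 and 3.30 to 10.6. Cebpb over Cebpd was below 1 in every Nr2f2 f/f uterus, at 0.958, 0.862, 0.896 and 0.925 in mice 1 to 4, although Cebpb and Cebpd each spread widely there. It was above 1 in every Nr2f2 d/d uterus, at 1.20, 1.35, 2.04 and 1.118 in mice 1 to 4, and highest in mouse 3, where Cebpd was lowest.

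**Figure D3:**
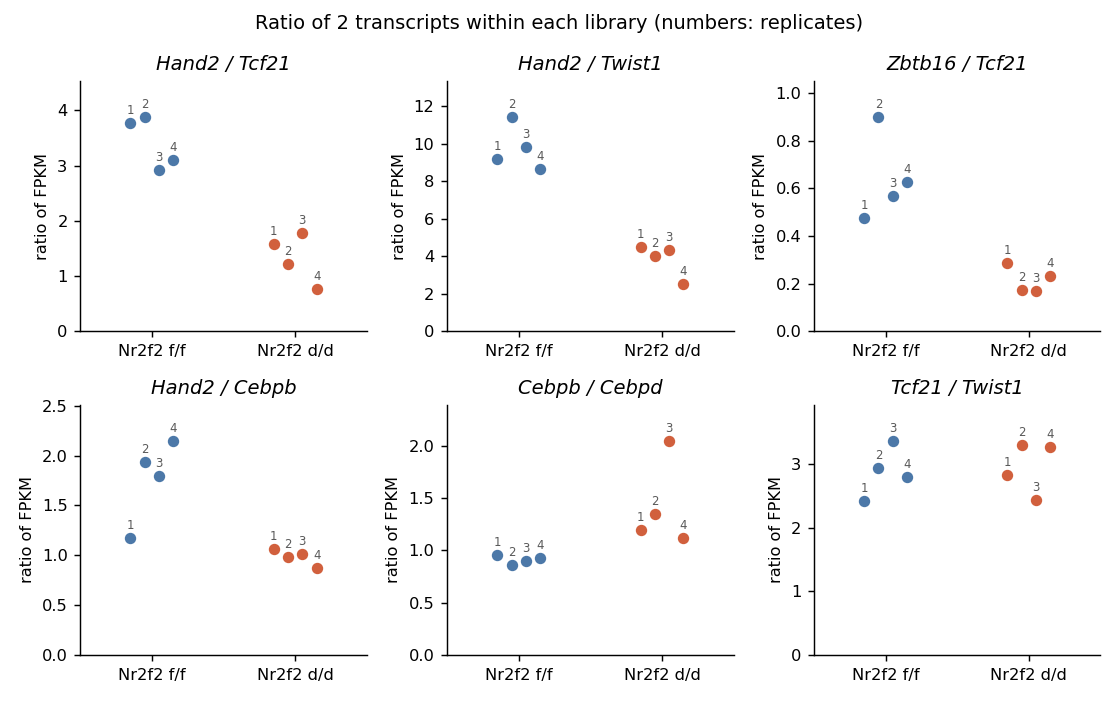
Ratio of the FPKM of 2 genes within each library (y axis, from 0) for 6 pairs, with Nr2f2 f/f mice in blue and Nr2f2 d/d mice in orange, numbered 1 to 4 in each group. The ratios of Hand2 to Tcf21, Twist1 and Cebpb and of Zbtb16 to Tcf21 lay lower in every Nr2f2 d/d uterus, Cebpb over Cebpd lay higher in every one, and Tcf21 over Twist1 overlapped.

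Over the 8 libraries, Tcf21 and Twist1 had the most similar profiles of any 2 of the genes, with a root mean square difference of 0.446 between their standardised log2 values. Among the 9351 genes whose mean FPKM was 5 or more, those closest to Hand2 were Polr1b (0.224), Arv1 (0.242) and Nsun2 (0.255), and those closest to Twist1 were Ing1 (0.189), Anapc16 (0.298) and Padi2 (0.316). Of these, Polr1b, a subunit gene of RNA polymerase I, was lower in Nr2f2 d/d (log2FC -0.40, adjusted p = 0.0452 in limma), and Padi2, which encodes a peptidylarginine deiminase, was higher (1.86, adjusted p = 0.00711 in limma). The nearest to Foxo1 were Inpp1 (0.175), Prss28 (0.182) and Gstm5 (0.189), and the nearest to Zbtb16 were Mtmr14 (0.24), Usp11 (0.241) and Sema6c (0.252). The nearest to Tcf21 were Slc6a8 (0.214), Zdhhc12 (0.276) and Zfyve21 (0.277), to Twist2 Atp6v1g1 (0.193), Pcbd2 (0.208) and Fam118b (0.211), to Cebpd Ccdc117 (0.162), Stau1 (0.195) and Atxn2l (0.198), and to Cebpb Tyro3 (0.282), Gbp2 (0.459) and Cdh24 (0.524). Twist1 stood 49th in likeness to Tcf21, and Tcf21 33rd to Twist1. All these profiles come from the same 8 libraries, so a likeness includes the difference between the groups. With each group centred on its own mean, Tcf21 and Twist1 were 0.997 apart, and the closest members were Cebpb and Cebpd (0.874), Foxo1 and Cebpd (0.934) and Zbtb16 and Tcf21 (0.975).

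The bHLH partners and relatives of Hand2, Tcf21 and the Twist genes were described as 3 lists. Of 17 other tissue-specific bHLH genes, 7 passed the filter on low values and 4 (Hand1, Ferd3l, Nhlh2 and Figla) were listed at 0 in all libraries, so Hand2 was measured without its close relative Hand1. The 7 had a median log2FC of -0.11, against -0.02 over all genes tested. The adjusted threshold was passed by 2.62% of all genes tested and by 1 of the 7. This was Tal1, a factor of blood and endothelial cells, which fell from 3.12 ± 0.537 to 1.64 ± 0.166 FPKM (SD, n = 4 each; log2FC -0.75, adjusted p = 0.0240 in limma). Scx, the tendon factor scleraxis, was at 1.04 ± 0.255 and 2.57 ± 1.56 FPKM (SD, n = 4 each), with groups that did not overlap and an adjusted p of 0.146 in limma, and Tcf23 had a log2FC of 0.30 (adjusted p = 0.463 in limma).

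The 3 E protein genes that supply the dimer partners had log2FC values of -0.12 for Tcf3, -0.23 for Tcf4 and -0.20 for Tcf12. None passed the adjusted threshold of limma and 1 had an unadjusted p under 0.05 (Tcf12, adjusted p = 0.178 in limma, groups that did not overlap). Of all genes tested, 21.2% had an unadjusted p under 0.05, 8.66% as higher and 12.5% as lower. The 4 Id genes, whose products hold E proteins away from DNA, all had positive log2FC values with a median of 0.38. None of them passed the adjusted threshold of limma and 1 had an unadjusted p under 0.05, Id2. Id2 was at 57.9 ± 16.2 FPKM in Nr2f2 f/f uteri and 87.8 ± 11.9 FPKM in Nr2f2 d/d (SD, n = 4 each), a log2FC of 0.63 (adjusted p = 0.135 in limma), and its groups did not overlap, with 73.5 FPKM in the lowest Nr2f2 d/d uterus and 72.5 FPKM in the highest Nr2f2 f/f uterus. Id1 and Id4 had log2FC values of 0.55 and 0.17 (adjusted p = 0.388 and 0.576 in limma).

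Among the relatives of the other members, no gene passed the adjusted threshold of limma. In the C/EBP family 1 of 3 tested had an unadjusted p under 0.05. It was Cebpa, at 19.2 ± 12.7 FPKM in Nr2f2 f/f uteri and 6.67 ± 1.68 FPKM in Nr2f2 d/d (SD, n = 4 each; adjusted p = 0.184 in limma), while Cebpg and Ddit3 had log2FC values of -0.32 and 0.08. In the FoxO family 1 of 3 had an unadjusted p under 0.05, Foxo6, at 0.582 ± 0.0614 and 0.939 ± 0.0966 FPKM (SD, n = 4 each; adjusted p = 0.0737 in limma). Foxo4 had a log2FC of -0.29 and Foxo3 of -0.16. Of 8 BTB zinc finger genes related to Zbtb16, 3 had an unadjusted p under 0.05: Zbtb32 (log2FC 0.72, adjusted p = 0.0726 in limma), Bcl6b (-0.28, adjusted p = 0.109) and Zbtb46 (-0.24, adjusted p = 0.141).

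Targets and inducers of the members were described in the same way. All 20 FoxO target genes that were tested had a negative log2FC, with a median of -0.25, where 46.7% of all genes tested had a positive one. None passed the adjusted threshold of limma, and 5 had an unadjusted p under 0.05, all 5 lower, where 12.5% of all genes tested were lower at this p. The 3 with the smallest p were S1pr1, a lysophospholipid receptor gene, at 18.0 ± 4.70 and 10.2 ± 0.520 FPKM (SD, n = 4 each; log2FC -0.76, adjusted p = 0.0509 in limma), Insr, the insulin receptor gene (-0.52, adjusted p = 0.116), and Klf2 (-0.69, adjusted p = 0.135). S1pr1 and Klf2 are also genes of endothelial cells. Of the 8 endothelial markers, 7 had a negative log2FC and 5 passed the adjusted threshold as lower (Pecam1, Cdh5, Kdr, Emcn and Egfl7), as did 1.53% of all genes tested. The summed level of the 8 markers was 276.5 to 370.3 FPKM in Nr2f2 f/f uteri and 173.2 to 221.2 FPKM in Nr2f2 d/d. None of the 8 was at 0. The part of endothelial cells in the levels of Foxo1, Tal1 and the FoxO targets was not tested, and in whole tissue fewer cells of a type and less RNA per cell cannot be told apart.

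Of 20 cytokine-induced genes of the kind that accompany C/EBP induction, 13 had a positive log2FC, with a median of 0.19. None passed the adjusted threshold of limma, and 5 had an unadjusted p under 0.05, 4 higher and 1 lower, where 8.66% of all genes tested were higher and 12.5% lower at this p. The smallest p-values were those of Irf1 (log2FC 0.30, adjusted p = 0.126 in limma), Il4ra (0.83, adjusted p = 0.0815) and Saa3 (1.08, adjusted p = 0.138). Neutrophil markers, 5 of 8 of them tested, summed to 4.40 to 23.3 FPKM in Nr2f2 f/f uteri and 20.2 to 44.1 FPKM in Nr2f2 d/d, and macrophage markers to 136.5 to 272.1 FPKM and 188.1 to 284.8 FPKM. All 11 T and NK cell markers tested had a positive log2FC, with sums of 52.4 to 69.6 FPKM and 94.7 to 355.6 FPKM. The adjusted threshold was passed as higher by 2 of them (Cd3d and Gzmb) and by 1.09% of all genes tested. The part of neutrophils, macrophages and T and NK cells in the levels of Cebpb and Cebpd was not tested.

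Genes that progestins or glucocorticoids induce, as they do Zbtb16 and Cebpd, had a median log2FC of -0.16 over 15 tested, 6 of them positive and 9 negative. None passed the adjusted threshold of limma. An unadjusted p under 0.05 was found for 2 of the 15, both lower, where 12.5% of all genes tested were lower at this p. Klf9 had a log2FC of -0.41 (adjusted p = 0.156 in limma), Pdk4 of -0.91 (adjusted p = 0.232) and Klf15 of -0.20 (adjusted p = 0.413). Of the 4 fibroblast growth factor genes downstream of HAND2, 2 passed the study's threshold as higher, Fgf1 (log2FC 1.61, adjusted p = 0.110 in limma) and Fgf18 (1.19, adjusted p = 0.0799), while Fgf2 was at 0.28 (adjusted p = 0.309) and Fgf9 at -0.36 (adjusted p = 0.757). The log2FC was thus positive for 3 of the 4 and negative for 1. None passed the adjusted threshold of limma, and 2 had an unadjusted p under 0.05, both higher. Of all genes tested, 4.7% were higher at the study's threshold and 8.66% were higher at an unadjusted p under 0.05.

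Among 47 other regulators of decidualization that were tested, 14 had a positive and 33 a negative log2FC, with a median of -0.15. The adjusted threshold was passed by 2.62% of all genes tested and by 3 of the 47. Besides Nr2f2, these were the homeobox genes Hoxd11, which fell from 19.8 ± 1.63 to 11.4 ± 0.295 FPKM (SD, n = 4 each; log2FC -0.76, adjusted p = 0.00549 in limma), and Hoxd10, which fell from 56.2 ± 2.51 to 41.0 ± 2.25 FPKM (SD, n = 4 each; -0.45, adjusted p = 0.0192). The fall of Hoxd11 was of about the size of that of Hand2, with less spread between mice. At the study's threshold 2 of the 47 were higher and 5 lower, Nr2f2 itself among the 5, where 4.7% of all genes tested were higher and 4.1% lower.

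Of the genes of the decidual cell state, the classical secreted products were low. The decidual prolactin genes Prl8a2 and Prl3c1 were at 0.023 FPKM or less in every library, Prl6a1 was at 0.075 to 0.243 FPKM in Nr2f2 f/f uteri and 0.129 to 0.534 FPKM in Nr2f2 d/d, and Igfbp1 was at 1.52 FPKM in Nr2f2 f/f mouse 2 and at 0.028 FPKM or less in the other 7. Of 24 such genes 15 were tested, with a median log2FC of 0.09. The adjusted threshold was passed by 3 of the 15, where 2.62% of all genes tested passed, 1.09% as higher and 1.53% as lower. Dio3, a deiodinase gene, rose from 0.274 ± 0.185 to 2.16 ± 0.431 FPKM (log2FC 1.79, adjusted p = 0.00788 in limma) and Il15, a cytokine gene for NK cells, from 12.4 ± 2.02 to 34.6 ± 8.19 FPKM (1.43, adjusted p = 0.00887). Tdo2, the tryptophan dioxygenase gene of decidual cells, fell from 0.839 ± 0.0694 to 0.211 ± 0.0890 FPKM (-0.92, adjusted p = 0.0149). Dio3 and Tdo2 passed the filter on low values only through their higher group, the mean of the other group being under 0.5 FPKM. Each value is a mean ± SD of 4 mice.

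**Figure D4:**
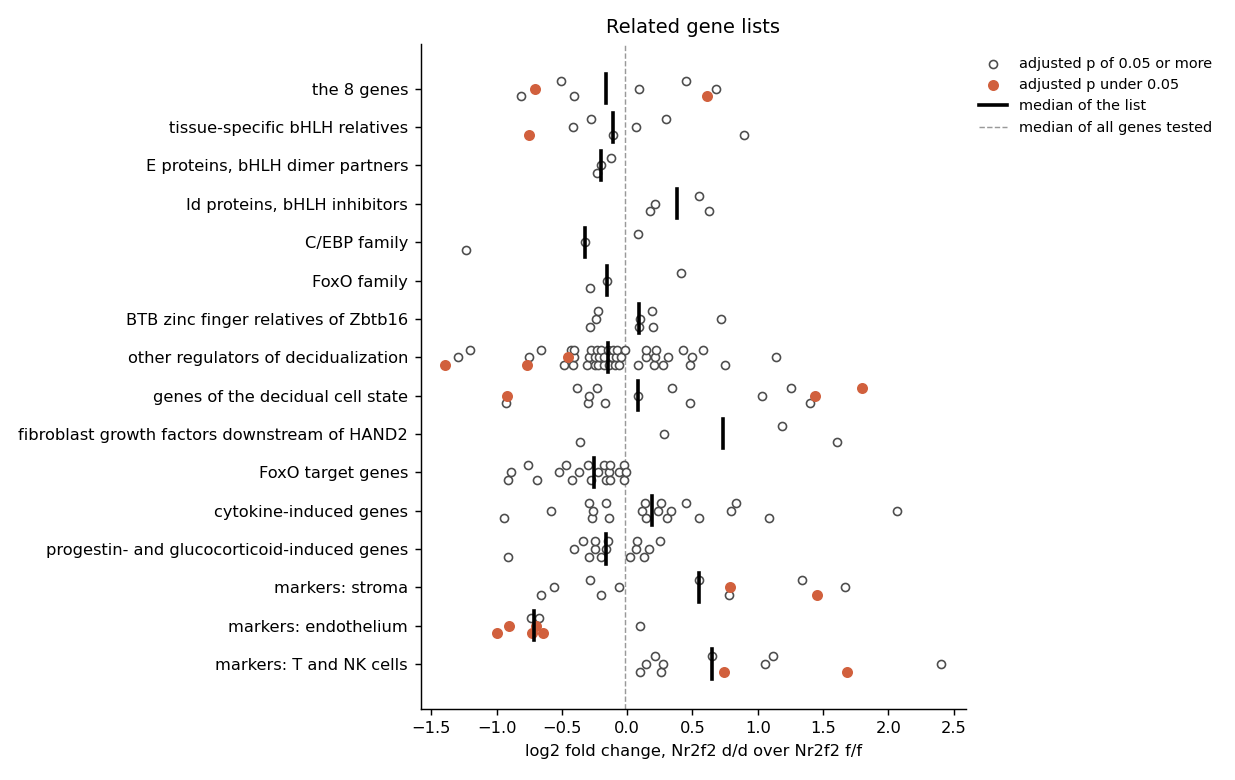
Log2 fold change (log2FC) of Nr2f2 d/d over Nr2f2 f/f (x axis) of each gene tested, as 1 point per gene, in the related lists and in 3 lists of cell markers. Filled points have an adjusted p under 0.05, black bars are list medians and the dashed line is the median of all genes tested (-0.02). All 20 FoxO targets lay below 0 and all 4 Id genes above 0 without a filled point, and 5 of 8 endothelial markers were filled on the lower side.

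The stromal markers did not move as a unit beside the 8 genes. Of the 11, the median log2FC was 0.55, and Dcn (0.79, adjusted p = 0.0192 in limma) and Col1a2 (1.46, adjusted p = 0.0484) were higher in Nr2f2 d/d. Vim, Thy1, Pdgfra, Pdgfrb and Fbn1 had log2FC values of -0.66, -0.56, -0.20, -0.07 and -0.28 and did not pass the adjusted threshold. At the study's threshold 6 of the 11 markers were higher and 2 lower, Vim and Thy1. Of all genes tested, 4.7% were higher and 4.1% lower at that threshold. Centred on the mean of these markers in each library, the log2FC became -1.14 for Hand2 (adjusted p = 0.0118 in limma), -1.25 for Zbtb16 (adjusted p = 0.0453) and 0.18 for Twist1 (adjusted p = 0.495), with the median of all genes tested and every member moved by -0.44. So centred, 6.89% of all genes tested passed the adjusted threshold, 74 as higher and 913 as lower, against 156 and 219 as deposited, and 39.6% passed the study's threshold, 191 as higher and 5485 as lower, against 673 and 587. Centring shifts every gene by the same amount, so the distance of each member from the median gene and the ratios within a library stay as they were. The markers of epithelium summed to 848.1 to 901.6 FPKM in Nr2f2 f/f uteri and 1137 to 1238 FPKM in Nr2f2 d/d, and those of pericytes to 158.9 to 192.3 FPKM and 104.2 to 126.4 FPKM. Markers of smooth muscle (1245 to 1764 FPKM and 998.0 to 2479 FPKM) and of glands (244.4 to 1997 FPKM and 96.3 to 345.3 FPKM) overlapped between the groups. Mesothelial markers summed to 33.1 to 54.0 FPKM and 57.0 to 76.05 FPKM, and those of adipocytes and ovary stayed at 9.47 FPKM or less. The part of a change in cell types in the levels of the 8 genes was not tested.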

How the data were processed

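RNA from 8 uteri was sequenced as 76-bp paired-end reads from unstranded libraries. Per the labels and the study's methods, the authors trimmed adaptors with cutadapt 1.12, aligned the reads to mm10 with STAR 2.5.2b and counted fragments per gene with featureCounts 1.5.0-p1 (Cufflinks 2.0.2 is also listed). The deposited values are FPKM, which are relative to each library's total. The gene annotation, strand setting and FPKM formula are not given in the sources used here. Library totals were estimated from 1311 single-exon genes of 30 to 200 bases, whose FPKM became whole fragment numbers (within 0.02) in 89.8% to 93.5% of cases at the total chosen. The labels' growth protocol supplied the age of the mice.

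The groups were compared on log2(FPKM + 0.5), which understates changes of low genes, with limma 3.58.1 in R 4.3.3 (eBayes with trend, two-sided), over the 14323 genes whose mean FPKM was 0.5 or more. All 8 members passed this filter. FPKM are not counts, so limma stands in place of the study's count model. Exact permutation tests were two-sided over 70 arrangements. The model was tested on simulated data. Tables were prepared with Python 3.11.15.

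The members and lists were chosen with earlier results of these data known, from general knowledge and not from the study's gene sets, and some genes stand in more than 1 list. Named genes are the members, Nr2f2, in each list every gene with an adjusted p under 0.05, filled up to the 3 with the smallest p, the 3 genes most like each member, and overlapping genes. Named outside this rule, after their values were seen, are Prss29, Col1a1, cell markers and genes near 0. Alternatives were pseudocounts of 0.1 and 1, no filter or one at 1 FPKM, median-ratio scaling, quantile normalization, centring on stromal markers, eBayes without trend and robust, the replicate number as a block, the permutation test on FPKM, and each library left out.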

Additional observations from a re-analysis of the deposited data

Results flagged for a closer look

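Values far from the other 3 of their group were found for 12 of 88 groups of 4 mice, over the members and the other named genes of the lists. Chance flags about 1 in 20 groups. Among the members there was 1, Cebpd, which was at 17.7 FPKM in Nr2f2 d/d mouse 3 and at 24.3 to 24.9 FPKM in the other 3 Nr2f2 d/d uteri. The same mouse was apart for Nr2f2 (6.90 FPKM), Scx (4.90 FPKM), Tal1 (1.88 FPKM), Il15 (46.8 FPKM) and Il4ra (35.4 FPKM), so that 6 of the 12 values were in that library. Nr2f2 f/f mouse 2 was apart for Foxo4 (19.0 FPKM), Bcl6b (6.67 FPKM) and Pdk4 (5.25 FPKM). The others were Ddit3 in Nr2f2 d/d mouse 2 (17.6 FPKM), Zbtb46 in Nr2f2 f/f mouse 3 (2.45 FPKM) and Tdo2 in Nr2f2 d/d mouse 4 (0.344 FPKM).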

How the results depend on the processing

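Pseudocounts, a filter at a mean of 1 FPKM, median-ratio scaling, quantile normalization and eBayes without trend or robust left the direction of all 8 genes and the side of the adjusted threshold of each as they were. Without a filter Hand2 had a log2 fold change of -0.71 at an adjusted p of 0.0514 from limma, with 21070 genes tested, and 1 member passed. Centred on the stromal markers, Zbtb16 was at -1.25 (adjusted p = 0.0453), Twist1 at 0.18 (adjusted p = 0.495) and Cebpb reversed to -0.35 (adjusted p = 0.243), with the median of all genes moved by -0.44 and 6.89% of all genes passing the adjusted threshold, against 2.62% as deposited.

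With 1 library left out, the log2 fold changes were -0.79 to -0.59 for Hand2, 0.55 to 0.68 for Twist1 and -0.04 to 0.27 for Cebpb (below 0, at -0.0394, without Nr2f2 f/f mouse 4). The adjusted threshold was passed by 0 to 2 members, with Hand2 passing in 2 of the 8 fits and Twist1 in 4, while the percentage of all genes passing fell to as low as 0.293% without Nr2f2 d/d mouse 2. At the study's threshold 4 to 7 members passed in these fits, the 7 without Nr2f2 f/f mouse 3. Of all genes tested, 7.55% to 10.1% passed it in the same fits. Under median-ratio scaling 4 members passed, against 8.75% of all genes tested. Centred on the stromal markers 4 members passed, against 39.6% of all genes tested.

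The replicate number was also fitted as a block. By the numbers of the titles Hand2 was at -0.71 and Twist1 at 0.61 (adjusted p = 0.134 for each from limma), and 0 members passed. By the numbers inside the descriptions Hand2 was at -0.73 (adjusted p = 0.103), Twist1 at 0.59 (adjusted p = 0.120) and Zbtb16 at -0.48 (adjusted p = 0.207). In that fit 0 members passed, and 3 passed the study's threshold, where 9.22% of all genes tested did. The deviations of same-numbered mice correlated at -0.20 to 0.05 by the titles and -0.20 to 0.15 by the descriptions. Both ranges lay within that of differently numbered mice, -0.32 to 0.28. These correlations thus showed no pairing by number, but with so few mice in each group they cannot exclude it. Over all genes 1 passed with the block of the titles and 0 with that of the descriptions. The causes of these changes were not tested.

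Each member rested on at least about 507 fragments in every library, and the precision of the comparisons is that of 4 mice a group.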
